A study of Mus musculus with 4 samples.

Results

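The genes described here are the 5 receptors for sphingosine 1-phosphate (S1pr1, S1pr2, S1pr3, S1pr4 and S1pr5) and 4 enzymes that make or remove this lipid (Sphk1, Sphk2, Sgpl1 and Sgpp1). They were taken by gene symbol, older synonyms allowed, which gave 9 genes with 10 probes among the 29675 genes and 39429 probes of a mouse microarray. Sphk1 has 2 probes and each of the other genes has 1. Swiss 3T3 cells, an established mouse fibroblast line, were the cells studied. Each of the 4 groups is a single array of RNA pooled from 3 samples. By their labels they are cocultured 3T3 cells: Lpar1-/- at 24 h (KO 24 h), Lpar1+/+ at 24 h (WT 24 h), Lpar1-/- at 0 h (KO 0 h) and Lpar1+/+ at 0 h (WT 0 h). The product of Lpar1 is a G protein-coupled receptor whose ligand, lysophosphatidic acid, is a lipid mediator related to sphingosine 1-phosphate. The Lpar1-/- cells are 1 CRISPR clone, made with a guide placed next to exon 3. Wild-type mast cells grown from bone marrow shared the dish with the fibroblasts for 24 h under 100 ng/ml SCF, the growth factor of mast cells, and were then removed by trypsin and reseeding or by beads against CD117. The labels call the 0 h samples cocultured too and do not say what they held. Mast cell markers were high on both 0 h arrays (values below), so 0 h signals cannot be read as those of fibroblasts alone.

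Sphingosine 1-phosphate is made inside cells when a sphingosine kinase (Sphk1 in the cytoplasm and at the plasma membrane, Sphk2 largely in the nucleus and at internal membranes) phosphorylates sphingosine, a breakdown product of ceramide. It is removed by the phosphatase Sgpp1, which returns it to sphingosine, or by the lyase Sgpl1, which cleaves it irreversibly. Exported sphingosine 1-phosphate acts on G protein-coupled receptors: S1pr1 couples to Gi, while S1pr2 and S1pr3 also couple to Gq and G12/13. These 3 receptors are widely expressed, in fibroblasts among other cells, whereas S1pr4 is known mainly from blood cells and S1pr5 from natural killer cells and oligodendrocytes.

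The probes that carry the differences below are shown by the first 30 bases of each 60-base oligonucleotide, 5′ to 3′, as the array files give them. The coordinates are those of the whole probe on mouse build mm9, on chromosomes 11, 3, 13 and 10. Whether a probe lies in coding sequence or in an untranslated region was not analysed here.
Sphk1, brighter probe, chr11:116397908-116397967, plus strand: ttgcatatagaagacactccccattgctct
Sphk1, second probe, chr11:116397591-116397650, plus strand: aagctgtgcagggccaagtgcacccaaact
S1pr1, chr3:115414020-115414079, minus strand: aagatgaaaatgtgttccttttttgtcaca
S1pr3, chr13:51517079-51517138, plus strand: tcactgatattaatcacacattgtacagga
S1pr4, chr10:80961501-80961560, minus strand: ctgacatctttggttctaatgtctgggccc

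Values are normalized log2 signals: log2 of the spot intensity minus the array's own 75th percentile, so that 0 is that percentile. Since each group is 1 array, replicate error is unknown and nothing below was tested. Each error is the spot error of the scanner software (SE), near 0.14 for a bright probe and 0.20 for a difference of 2 arrays, and it covers neither culture nor labelling. The call higher or lower means that 2 arrays differed by at least 2-fold (1 on the log2 scale) with the probe well above background on both. Such a call is about the arrays, and not about the conditions in general. Signals of different probes cannot be ranked against each other, so each gene is compared only with itself.

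Between 62.1% and 72.7% of spots were well above background per array, and 0 spots were saturated. Of the 9 genes, 7 were well above background on all 4 arrays: S1pr1, S1pr2, S1pr3, Sphk1, Sphk2, Sgpl1 and Sgpp1. The probe for the edited gene, Lpar1, read −3.61, −3.15, −3.43 and −3.20 on KO 24 h, WT 24 h, KO 0 h and WT 0 h, and says nothing of the genotype, since where it lies with respect to the edited site is not known here. The arrays differed in the levels of cell type markers. The 18 fibroblast markers had a median of 2.75 on KO 24 h, 2.85 on WT 24 h, 1.83 on KO 0 h and 2.57 on WT 0 h, with log2 of the summed level at 8.22, 8.44, 7.57 and 7.90 in that order. The 20 mast cell markers had medians of −4.31 and −4.32 on KO 24 h and WT 24 h but 4.97 and 4.17 on KO 0 h and WT 0 h, with log2 of the summed level at 4.98, 3.34, 9.55 and 9.01 in the same array order. Of them, 16, 17, 20 and 20 were well above background, and Ms4a2 and Tpsab1 were not on either 24 h array. The 15 pan-leukocyte markers behaved likewise, with medians of −5.32, −5.14, 3.15 and 1.92 and log2 of the summed level at 2.88, 3.27, 7.28 and 6.34. Endothelial markers (8) had medians of −7.69, −6.37, −5.39 and −6.10, lymphocyte markers (8) −8.16, −6.54, −5.90 and −7.60, and macrophage markers (8) −3.66, −4.71, −2.74 and −2.98. In bulk RNA, fewer cells of a type and less RNA per cell cannot be told apart.

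Sphk1, the kinase that makes sphingosine 1-phosphate, had the largest genotype difference among the members measured at each time on the reported scale. With spike-in RNAs as the scale, S1pr1 at 0 h (−1.58) was further from 0 than Sphk1 (1.49). Its brighter probe read −0.40 on KO 24 h, −3.29 on WT 24 h, −1.22 on KO 0 h and −2.95 on WT 0 h, from intensities of 568, 94.8, 432 and 154. Both KO arrays were above both WT arrays. How many of all genes have both KO arrays on one side of both WT arrays was not computed, here or for the genes below. The KO minus WT difference was 2.89 (SE 0.21) at 24 h, a 7.40-fold higher signal, and 1.74 (SE 0.20) at 0 h, a 3.34-fold higher signal. Of 17294 genes measured at 24 h, 136 (0.786%) were at least as high in KO over WT as Sphk1 on this probe. At 0 h 251 of 20318 (1.24%) were. In KO minus WT, 4 of 15 measured mast cell markers were higher and 1 lower at 24 h, and 7 of 20 and 0 at 0 h. Of all genes, 5.76% were higher and 12.3% lower at 24 h, and 9.34% and 4.07% at 0 h. The part of the mast cell transcripts in the Sphk1 differences was not tested.

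The second Sphk1 probe was dimmer. It read −3.45 on KO 24 h, −5.24 on WT 24 h, −3.89 on KO 0 h and −5.67 on WT 0 h. The intensities were 68.8, 24.6, 67.6 and 23.5 in that order. On the WT arrays the lowest level well above background was −6.16 at 24 h and −7.36 at 0 h. The second probe's genotype differences were 1.79 (SE 0.26, 3.46-fold) at 24 h and 1.78 (SE 0.23, 3.44-fold) at 0 h. Of all measured genes, 375 (2.17%) at 24 h and 234 (1.15%) at 0 h were at least as high as this probe. Both probes thus placed both KO arrays above both WT arrays, and they gave nearly the same difference at 0 h but not at 24 h. They also differed over time. The brighter probe's 24 h minus 0 h difference was 0.81 in KO (−0.11 when scaled on fibroblast markers) and −0.33 in WT, and the second probe's was 0.45 in KO and 0.44 in WT. The change in KO minus the change in WT was therefore 1.15 (SE 0.29) on the brighter probe and 0.0092 (SE 0.35) on the second. The brighter probe's value fell below 2-fold with normexp (0.85), spike-in RNAs (0.97) and fibroblast markers (0.51).

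**Figure D1:**
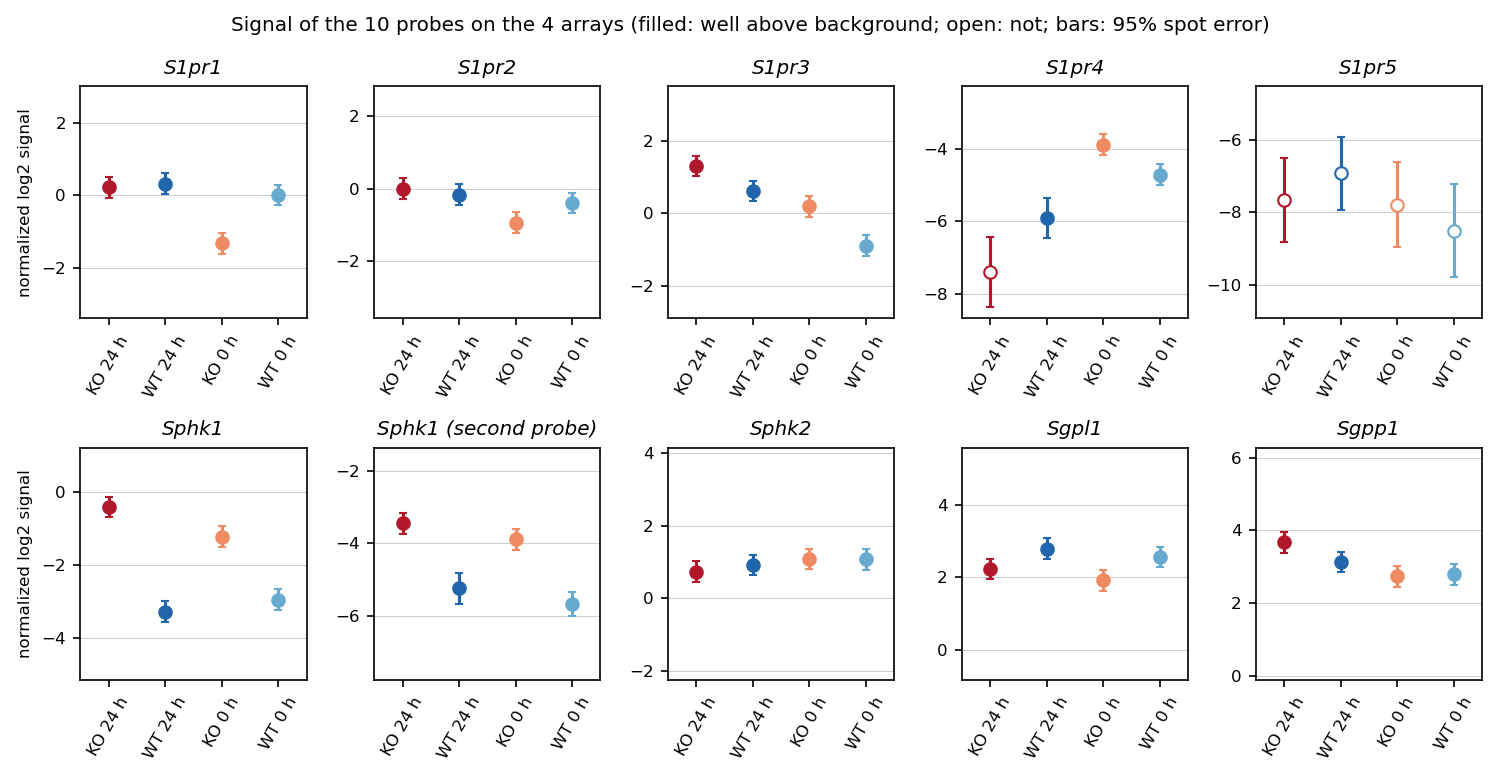
Normalized log2 signal (vertical axis) of each of the 10 probes on KO 24 h, WT 24 h, KO 0 h and WT 0 h. Points are single arrays, bars are 95% spot error, open points are not well above background, and each panel has its own axis of equal length; both Sphk1 panels show the KO arrays above the WT arrays, while S1pr5 has only open points.

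Sphk2, the other kinase, stayed within a narrow range on the reported scale: 0.74 on KO 24 h, 0.92 on WT 24 h, 1.08 on KO 0 h and 1.08 on WT 0 h. No neighbouring pair in the order of levels differed beyond 2 SE. Its KO minus WT difference was −0.18 at 24 h and 0.0062 at 0 h. With fibroblast markers as the scale, KO minus WT at 0 h was 0.74 and 24 h minus 0 h in KO was −1.27.

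Sgpl1, the lyase, was lower in KO at both times but by less than 2-fold. It read 2.23 on KO 24 h, 2.79 on WT 24 h, 1.92 on KO 0 h and 2.56 on WT 0 h, so both KO arrays lay below both WT arrays. The differences were −0.56 at 24 h and −0.64 at 0 h. Scaling on fibroblast markers turned the 0 h value to 0.097. Sgpp1, the phosphatase, read 3.67 on KO 24 h, 3.13 on WT 24 h, 2.73 on KO 0 h and 2.79 on WT 0 h. KO 24 h was the high array, by 0.54 over WT 24 h (0.11 with spike-in RNAs as the scale). The other neighbouring levels of Sgpp1 lay within 2 SE of each other. Its KO minus WT value at 0 h, −0.061, was 0.67 when scaled on fibroblast markers. Its 24 h minus 0 h difference in KO, 0.94, was just under 2-fold, and was 0.020 when scaled on fibroblast markers.

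S1pr1, the Gi-coupled receptor, had 1 low array. It read 0.22 on KO 24 h, 0.32 on WT 24 h, −1.32 on KO 0 h and 0.01 on WT 0 h, so KO 0 h lay apart and the other levels were within 2 SE of their neighbours. Between genotypes S1pr1 differed by −0.10 at 24 h and by −1.34 (SE 0.20) at 0 h, which is 2.53-fold lower in KO. At 0 h, 469 of 20318 genes (2.31%) were at least as low. The 24 h minus 0 h difference was 1.55 in KO and 0.31 in WT, and the change in KO minus that in WT was 1.24 (0.60 when scaled on fibroblast markers). The array on which S1pr1 was low is also the one with the lowest fibroblast markers: 7 of 17 measured fibroblast markers were lower and 2 higher in KO at 0 h, with a median of −0.70, while 10 of 15 pan-leukocyte markers and 7 of 20 mast cell markers were higher. Of all genes measured in KO minus WT at 0 h, 9.34% were higher and 4.07% lower. With the fibroblast markers as the scale, S1pr1 was −0.60 in KO minus WT at 0 h and 0.63 in 24 h minus 0 h in KO, below 2-fold in both. Their part in the S1pr1 difference was not tested.

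S1pr2, which couples to G12/13, was below 2-fold in every comparison on the reported scale. It read −0.01 on KO 24 h, −0.17 on WT 24 h, −0.94 on KO 0 h and −0.40 on WT 0 h. KO 0 h was again the low array, and it alone lay beyond 2 SE of its neighbour in the order of levels. The 24 h minus 0 h difference was 0.93 in KO, which was 1.01 with quantile normalization and 0.013 when scaled on fibroblast markers, and 0.23 in WT. Between genotypes S1pr2 differed by 0.16 at 24 h and by −0.54 at 0 h, and both signs turned under other scales, to −0.27 at 24 h with spike-in RNAs and to 0.19 at 0 h with fibroblast markers.

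S1pr3, the third widely expressed receptor, read above WT in KO at both times, by less than 2-fold at 24 h. It was higher at 24 h than at 0 h in both genotypes. It read 1.31 on KO 24 h, 0.61 on WT 24 h, 0.19 on KO 0 h and −0.89 on WT 0 h, and each of these levels was beyond 2 SE of the next. The excess in KO over WT was 0.69 at 24 h and 1.08 (2.12-fold) at 0 h. With spike-in RNAs as the scale these values were 0.26 and 0.84. The 24 h minus 0 h difference was 1.12 (2.17-fold) in KO and 1.51 (2.84-fold) in WT. The KO value was 0.96 with normexp, 0.77 with spike-in RNAs and 0.20 with fibroblast markers as the scale, each below 2-fold. The change in KO minus that in WT was −0.39 (SE 0.29), and −1.03 when scaled on fibroblast markers. S1pr1 and S1pr3 thus stood on opposite sides of WT in KO at 0 h. The part of the leukocyte and mast cell transcripts in the S1pr3 differences was not tested.

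S1pr4 and S1pr5 were dim. S1pr4 read −7.38 on KO 24 h, where it was not well above background, −5.91 on WT 24 h, −3.89 on KO 0 h and −4.71 on WT 0 h. Both 0 h arrays were above both 24 h arrays, as were the mast cell and leukocyte markers. In WT the 24 h minus 0 h difference was −1.20 (SE 0.32), and −0.50 with normexp. In KO the signal at 0 h was at least 6.97-fold higher than at 24 h, taking the 24 h signal at the lowest level well above background. At 24 h S1pr4 was at least 1.72-fold higher in WT than in KO by the same reckoning, and at 0 h KO minus WT was 0.82 (1.55 when scaled on fibroblast markers). The part of the leukocyte and mast cell transcripts in these differences was not tested. S1pr5 read −7.67, −6.93, −7.79 and −8.50 on KO 24 h, WT 24 h, KO 0 h and WT 0 h. No array had it well above background, so these values have no order.

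**Figure D2:**
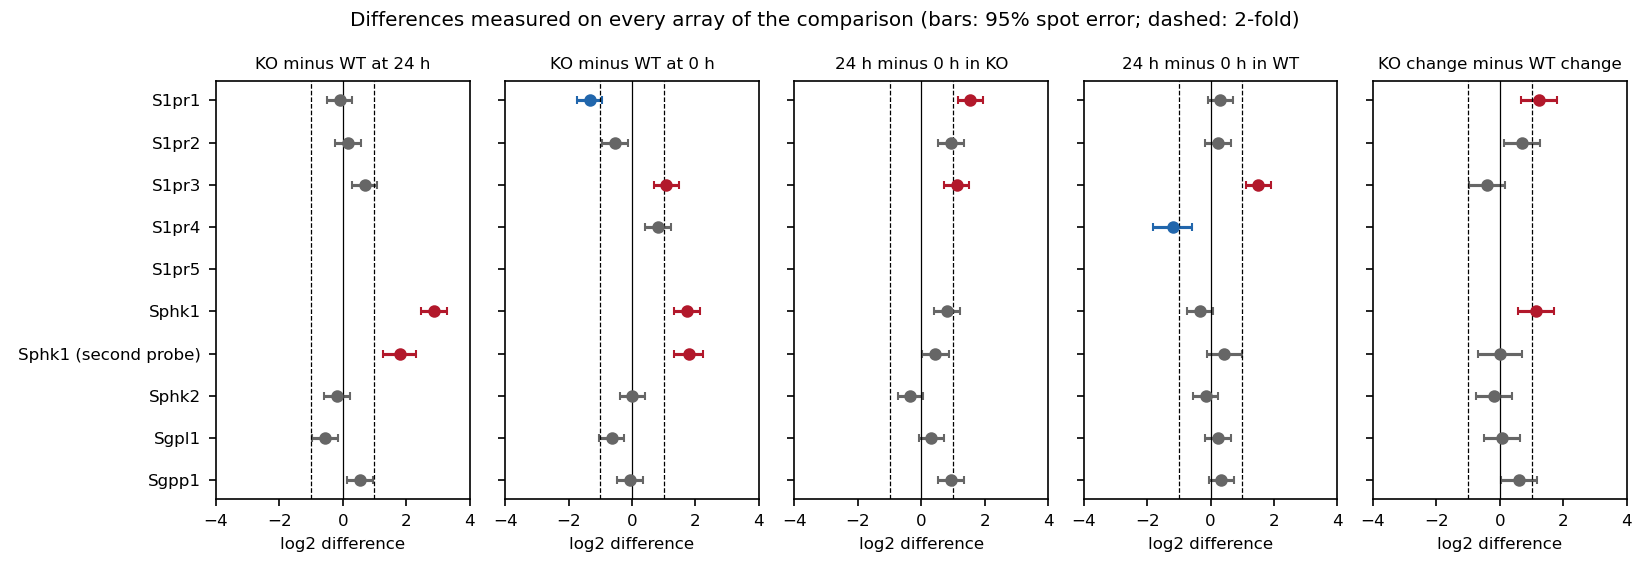
Log2 differences (horizontal axis) of the 10 probes in the 5 comparisons, shown where the probe was well above background on every array of the comparison. Points are differences with 95% spot error as bars, red is at least 2-fold higher, blue at least 2-fold lower, and the dashed lines mark 2-fold; Sphk1 is the only red point in KO minus WT at 24 h among the brightest probes.

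Counted over the genes, each by its brightest probe, KO minus WT at 24 h was measured for 7 of the 9, of which 1 (Sphk1) was at least 2-fold higher and 0 were lower, against 5.76% of all measured genes higher and 12.3% lower. At 0 h, 8 were measured, with 2 higher (Sphk1 and S1pr3) and 1 lower (S1pr1), against 9.34% and 4.07% of all genes. The 24 h minus 0 h difference in KO was measured for 7, of which 2 (S1pr1 and S1pr3) were higher and 0 lower, against 9.48% and 10.9%. In WT, 8 were measured, with 1 (S1pr3) higher and 1 (S1pr4) lower, against 15.8% and 5.57%. For the change in KO minus the change in WT, 7 were measured, with 2 (S1pr1 and Sphk1) higher and 0 lower, against 4.72% and 13.3%. The median KO minus WT difference of the measured genes was 0.16 at 24 h and −0.028 at 0 h, with −0.093 and 0.057 over all genes. For 24 h minus 0 h it was 0.93 in KO and 0.23 in WT, with 0.23 and 0.28 over all genes. With so few genes these shares describe the list only.

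**Figure D3:**
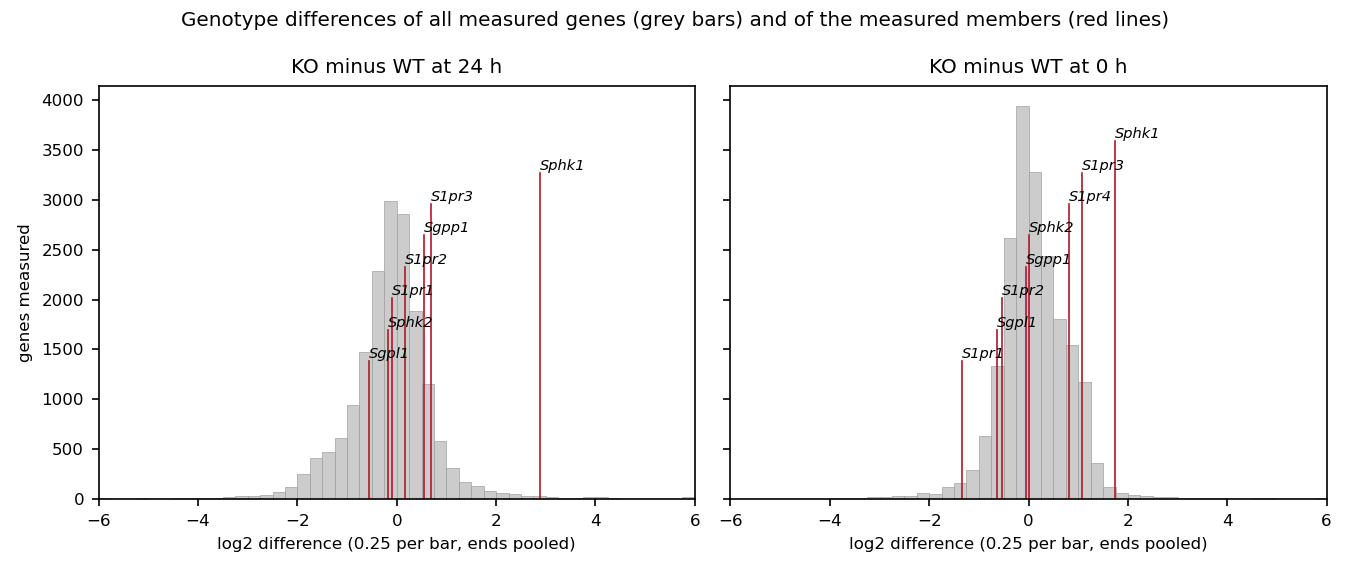
Number of measured genes (vertical axis) per 0.25 of KO minus WT log2 difference (horizontal axis) at 24 h (left) and 0 h (right), with red lines at the receptors and enzymes that were measured. At 24 h Sphk1, at 2.89, lies far to the right of the bulk, and the other 6 lie between −0.56 and 0.69.

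The promoters of the members were taken from RefSeq on build GRCm38.p6, as 300 bases from 250 before to 50 after each start. Of the 9 genes, 8 matched, with 13 starts. S1pr1 had no entry. Sphk1 has 5 starts, and the stretches before its first and second starts are shown because Sphk1 carries the main difference. Capitals mark a TEAD motif (GGAATG, 210 bases before the start) and a TATA box (TATAAA, 31 bases before) in the first, and an AP-1 motif (TGAGTCA, 50 bases before) in the second.
Sphk1, first start, chr11:116530850-116531099, plus strand: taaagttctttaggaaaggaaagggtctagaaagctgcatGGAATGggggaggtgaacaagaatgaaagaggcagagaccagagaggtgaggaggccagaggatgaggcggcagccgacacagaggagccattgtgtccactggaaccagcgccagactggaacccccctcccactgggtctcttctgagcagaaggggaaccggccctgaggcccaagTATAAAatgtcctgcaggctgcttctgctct
Sphk1, second start, chr11:116531687-116531836, plus strand: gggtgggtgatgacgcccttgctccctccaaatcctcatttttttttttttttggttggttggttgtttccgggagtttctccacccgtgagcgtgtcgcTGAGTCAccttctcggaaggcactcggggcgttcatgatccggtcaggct

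Motifs for AP-1, TEAD, Sp1, CREB, NF-kB and the TATA box were searched on both strands. The share of all 32851 promoters that hold each was 7.81% for AP-1 (TGANTCA), 14.7% for TEAD (GGAATG), 35.7% for the Sp1 box (GGGCGG), 1.79% for the CRE (TGACGTCA), 0.411% for the NF-kB motif and 13.6% for the TATA box (TATAAA). Of the Sphk1 starts, 2 held an AP-1 motif, in overlapping windows, 1 a TEAD motif and 1 a TATA box. CRE motifs stood at S1pr2 and at Sphk2. A match describes the letters in this window, and whether any factor binds there was not analysed here.

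For each member well above background on all arrays that spanned at least 2-fold over them, the genes with the most similar pattern over the 4 arrays were found. They came from 12668 genes well above background on all 4 arrays, with provisional clone and predicted names left out. Likeness was the root mean square difference (RMS) after centring each gene on its mean. Each gene was taken by its brightest probe, so the genes given for Sphk1 are those like its brighter probe only. For Sphk1 they were Pdf (RMS 0.072), which encodes a mitochondrial peptide deformylase, Lce1j (0.10), a cornified envelope gene, and Slc16a13 (0.12), a monocarboxylate transporter. For S1pr3 they were Pparg (0.075), the adipocyte nuclear receptor, Fah (0.091), an enzyme of tyrosine breakdown, and Cdkn2a (0.092), a cell cycle inhibitor locus. For S1pr1 they were Nr2f1 (0.023), a nuclear receptor, Trpm3 (0.060), a cation channel, and Pcdh7 (0.080), a protocadherin. Within an RMS of 0.25 lay 16 genes for Sphk1, 39 for S1pr3 and 214 for S1pr1. This limit is not scaled to a gene's range, which was smallest for S1pr1.

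Around the members, 66 genes of sphingosine 1-phosphate and ceramide metabolism and lysophosphatidic acid reception were followed in 6 lists. KO minus WT at 24 h was measured for 55, with 2 higher and 6 lower, against 5.76% and 12.3% of all genes. At 0 h it was measured for 57, with 3 higher and 6 lower, against 9.34% and 4.07%. The export list held the largest difference near the kinase. Spns2, the transporter that carries sphingosine 1-phosphate out of cells, read −2.34 on KO 24 h, 0.77 on WT 24 h, −1.97 on KO 0 h and −0.46 on WT 0 h. Both KO arrays were below both WT arrays: the genotype difference of Spns2 was −3.10 (SE 0.20) at 24 h and −1.5 (SE 0.20) at 0 h, the second of which was −0.77 when scaled on fibroblast markers. Spns2 and Sphk1 thus differed in opposite directions at both times.

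The lipid exporter Abca1 had genotype differences of −1.78 at 24 h and −1.91 at 0 h. Plpp3, a surface phosphatase that degrades sphingosine 1-phosphate and lysophosphatidic acid, had −0.77 and −1.59 at the same times, the second being −0.86 when scaled on fibroblast markers. In all, 2 of 11 measured genes of the export and phosphatase list were lower and 0 higher at 24 h, where 12.3% and 5.76% of all genes were. At 0 h 3 were lower and 1 (Abcb1a, 1.02, and 0.73 at the lowest setting) higher, where 4.07% and 9.34% of all genes were. In the list of breakdown enzymes downstream of the lyase, Aldh3b1, an aldehyde dehydrogenase, was −2.61 at 24 h and −2.65 at 0 h, and 2 of 9 were lower at 24 h and 1 at 0 h, against the same shares of all genes. These lists are too short for such shares to say more. Among the ceramide users, Ugcg, which makes glucosylceramide, was −1.66 at 24 h and 0.04 at 0 h. Sgms2, a sphingomyelin synthase, was 1.24 at 24 h (0.81 at the lowest setting). In the same list at 0 h, Smpdl3a was 1.84 (0.56 at the lowest setting) and Smpd3 was −1.28 (−0.37 at the highest). At 24 h Smpdl3a was at least 3.23-fold higher in KO, as it was not well above background on WT 24 h. The 1 gene called in de novo ceramide synthesis at 24 h was Cers3, at 1.29, but its other probe gave −2.21. No ceramidase of the 4 measured was called at 24 h, and Acer2 was called at 0 h, at 1.13 (0.41 on its other probe).

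**Figure D4:**
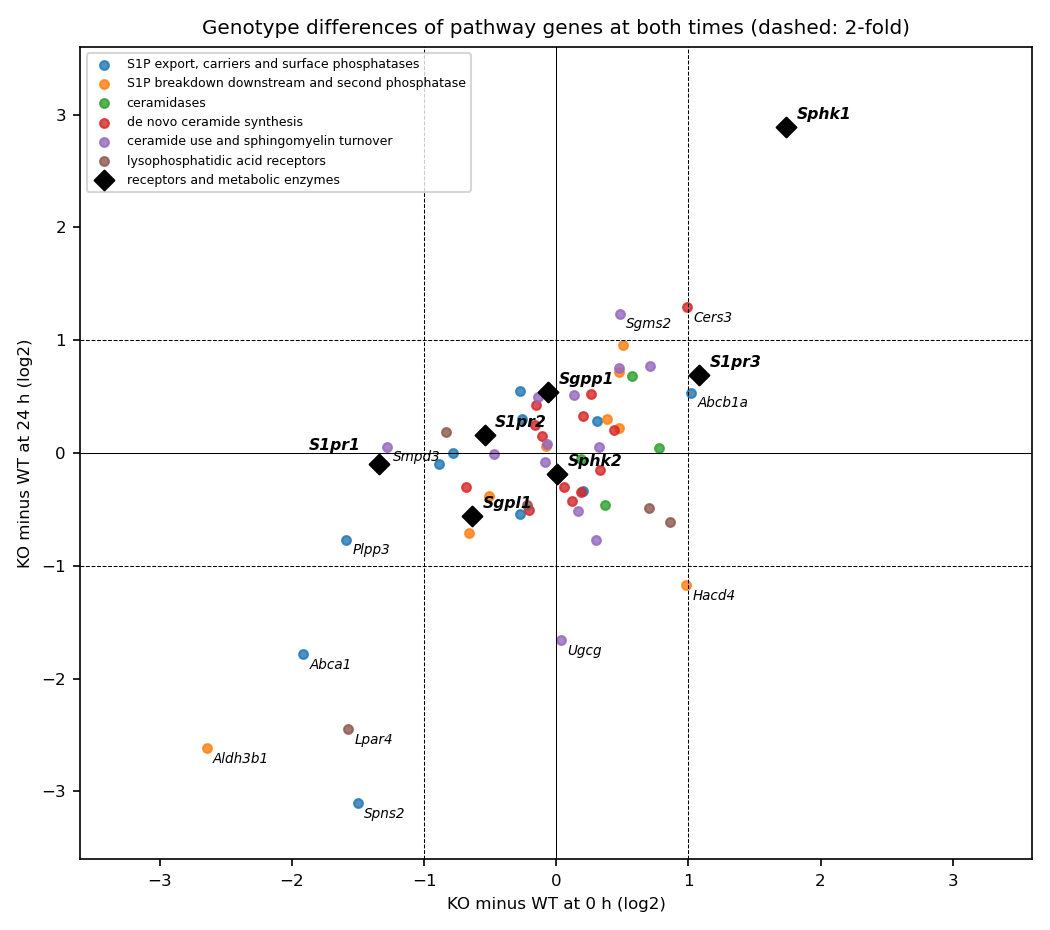
KO minus WT log2 difference at 24 h (vertical axis) against that at 0 h (horizontal axis) for pathway genes measured at both times, coloured by list, with the receptors and enzymes as black diamonds. Dashed lines mark 2-fold. Among the genes plotted, Sphk1 stands alone at the upper right. Spns2, Aldh3b1, Lpar4 and Abca1 stand at the lower left, at least 2-fold lower at both times. Smpdl3a is not plotted because it was not well above background on WT 24 h.

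Over time, 10 of 56 measured pathway genes were higher and 4 lower at 24 h than at 0 h in KO, against 9.48% and 10.9% of all genes. In WT 6 of 55 were higher and 3 lower, against 15.8% and 5.57%. Abca1 was higher at 24 h in both genotypes, by 1.5 in KO (0.58 at the lowest setting) and 1.37 in WT. Spns2 was −0.37 in KO and 1.23 in WT, reaching −1.29 in KO and 0.95 in WT under other settings. The lysophosphatidic acid receptor Lpar4 was the 1 receptor of that family of 5 measured with a genotype call, with −2.45 at 24 h and −1.57 at 0 h (−0.84 when scaled on fibroblast markers).

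The processing decided several of the calls. Sphk1 in KO minus WT was between 2.26 and 2.99 at 24 h and between 1.41 and 2.47 at 0 h over 8 other settings, past 2-fold in each, and S1pr3 in WT over time also stayed past 2-fold. Both filter settings left these values unchanged and the value table all but did, so fewer than 8 settings could move them. The other calls fell below 2-fold under at least 1 setting. S1pr1 at 0 h lay between −1.58 and −0.60, and S1pr3 at 0 h between 0.84 and 1.82. For 24 h minus 0 h, S1pr3 lay between 0.20 and 1.12 in KO and between 1.22 and 1.51 in WT, and S1pr4 in WT between −1.65 and −0.50. Scaling on fibroblast markers, whose median differed by −0.73 between KO and WT at 0 h and by 0.92 between 24 h and 0 h in KO, shifted every gene by that amount. Scaling on 8 bright spike-in RNAs, a setting chosen after seeing the data, lowered KO minus WT by 0.43 at 24 h and by 0.25 at 0 h.

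**Figure D5:**
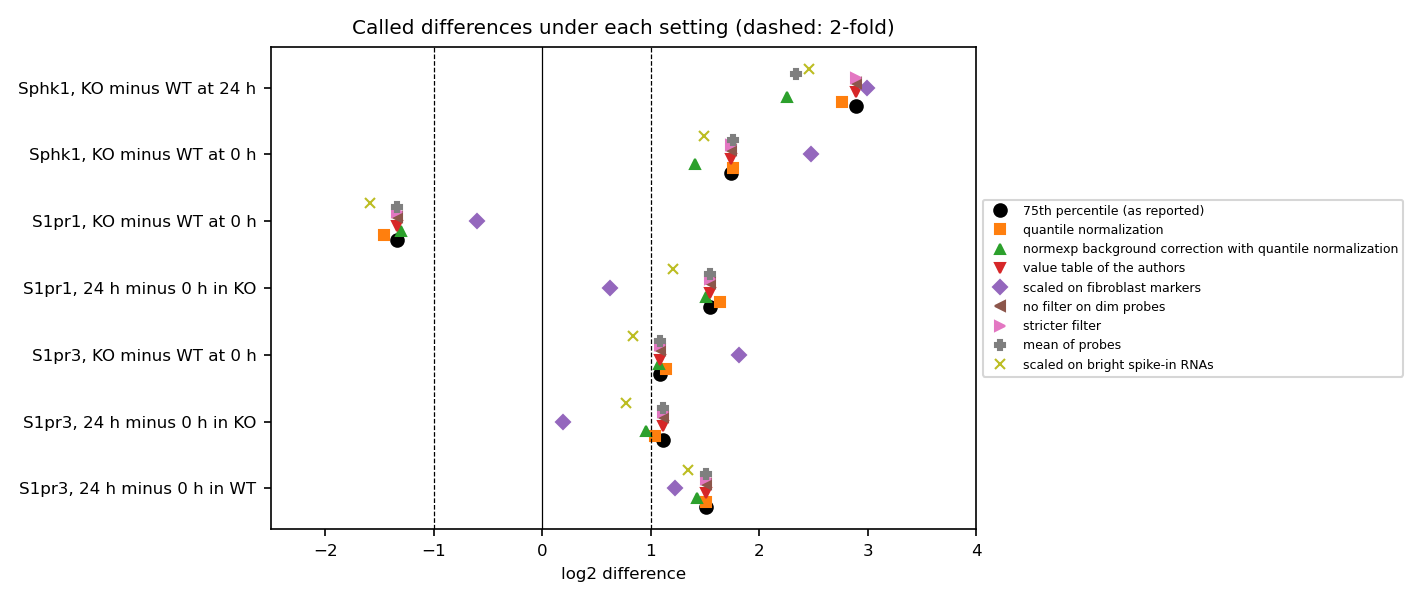
Log2 difference (horizontal axis) of 7 differences past 2-fold, one row each, under the reported setting (black) and 8 others (coloured symbols). Dashed lines mark 2-fold; the Sphk1 rows and S1pr3 in WT stay past it under each setting, and the other rows cross it under some.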

How the data were processed

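RNA from 4 groups was labelled (200 ng, Cy3) and hybridised to 4 single-channel Agilent arrays on 1 slide. The deposited scanner files hold spot intensity. It was read with Agilent Feature Extraction 12.1.1.1 (submitters' processing notes), and per the file headers the background of the intensity had been subtracted and the signal detrended within each array. The deposited value table is a ratio to each array's 75th percentile and served as an alternative. Control and outlier-flagged spots were dropped, with outlier and background flags as the deposited files give them. Log2 intensity minus the 75th percentile over 43020 spots was averaged per probe. Of 39429 probes, 29110 were named by accession in RefSeq GRCm38.p6 and 10319 kept the file's name. A gene took its brightest probe.

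Each group has 1 array, so no test was run. Where only 1 array of a pair was well above background, an at-least fold is given. The members, the 6 pathway lists and the 6 marker lists were chosen with earlier results of these data known. A further signalling list is not reported here. Named genes are the members, the 3 genes most like each, and up to 3 per list and comparison past 2-fold; fewer are printed. Alternatives were quantile normalization, normexp (offset 50) with quantile normalization, the value table, scaling on fibroblast markers or on spike-ins (added later), no filter or a stricter filter on dim probes, and the mean of a gene's probes. Scripts were tested on simulated data. Python 3.11.15, R 4.3.3 and limma 3.58.1 (normexp) were used.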

Additional observations from a re-analysis of the deposited data

Results flagged for a closer look

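Several members had differences of opposite sign in the 2 genotypes or at the 2 times. With 1 array per group, none of these differences between groups was tested. Sphk1 at its brighter probe was 0.81 in 24 h minus 0 h in KO and −0.33 (SE 0.21, within 2 SE of 0) in WT. Its second probe gave 0.45 in KO and 0.44 in WT. S1pr2 was 0.16 (SE 0.20, within 2 SE of 0) in KO minus WT at 24 h and −0.54 at 0 h. Sphk2 was −0.18 at 24 h and 0.0062 at 0 h, both within 2 SE of 0. Sgpp1 was 0.54 at 24 h and −0.061 (SE 0.20, within 2 SE of 0) at 0 h. Thus no pair had both differences beyond 2 SE of 0.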

How the results depend on the processing

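Of 294 member values recomputed over 8 settings, 261 moved by less than their 95% spot error, 33 moved by more and 0 values past 2-fold changed sign. Many of the 261 could not move, so their share does not measure robustness. Both filter settings only change which probes count, and left every recomputed value as it was. The value table holds the same ratio as the reported scale. The mean of probes could change Sphk1 alone. Members called at least 2-fold changed as follows. With normexp background correction, 1 was higher in 24 h minus 0 h in KO (S1pr1), 0 were lower in WT and 1 was higher in the change in KO minus that in WT (S1pr1). With quantile normalization, 3 were higher in 24 h minus 0 h in KO (S1pr2 added). With fibroblast scaling, 0 were lower and 3 higher (S1pr4 added) in KO minus WT at 0 h, where 7531 of 20318 genes were higher and 268 lower. In 24 h minus 0 h in KO, 0 were then higher and 1 lower (Sphk2), and in the change in KO minus that in WT 0 were higher and 1 lower (S1pr3). Of all genes under this scaling, 128 of 17865 were higher and 6156 lower in the first, and 174 of 17119 and 4890 in the second. With spike-in scaling, 1 was higher in KO minus WT at 0 h (Sphk1), 1 in 24 h minus 0 h in KO and 1 in the change in KO minus that in WT (both S1pr1). With no filter on dim probes, 1 was lower in KO minus WT at 24 h and 1 in 24 h minus 0 h in KO (both S1pr4), 2 were higher in WT (S1pr3 and S1pr5), and 2 were lower in the change in KO minus that in WT (S1pr4 and S1pr5). Of all genes without the filter, 7619 of 29661, 5858 of 29660, 8824 of 29670 and 10837 of 29655 had these calls, in the same order. The stricter filter left 0 lower in WT, and the mean of probes left 1 higher in the change in KO minus that in WT (S1pr1). The cause was not tested. No paired analysis was possible because each group has 1 array.

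Among all genes, KO minus WT had 996 higher and 2124 lower at 24 h (560 to 1659 and 673 to 7619 over the settings), and 1897 and 827 at 0 h (678 to 7531 and 268 to 1453). In 24 h minus 0 h, KO had 1694 and 1952 (128 to 2273 and 1193 to 6156), and WT 3035 and 1070 (465 to 8824 and 732 to 2161). The change in KO minus that in WT had 808 and 2281 (174 to 1493 and 663 to 10837). Scaling moved the split: spike-in scaling gave 560 higher and 4076 lower in KO minus WT at 24 h and 733 and 1453 at 0 h, quantile normalization 1195 and 1401, and 1396 and 1000, and fibroblast scaling 7531 and 268 at 0 h. For 24 h minus 0 h, fibroblast scaling gave 128 and 6156 in KO and 1963 and 1552 in WT, spike-in scaling 622 and 3019 in KO, and quantile normalization 2273 and 1468 in KO. Normexp gave 680 and 673 in KO minus WT at 24 h, 804 and 551 at 0 h, and 465 and 732 in 24 h minus 0 h in WT. For the change in KO minus that in WT, quantile normalization gave 1262 and 1511, normexp 469 and 663, fibroblast scaling 174 and 4890, and spike-in scaling 487 and 2747. Signals near background limit S1pr4 and S1pr5.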

Other observations

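Lpar6, a receptor for lysophosphatidic acid, was lower at 24 h than at 0 h, with differences of −4.14 in KO and −2.67 in WT, and both of its probes read alike. The mast cell markers were also lower at 24 h, and their part in the Lpar6 difference was not tested.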
